A study of Tupaia belangeri chinensis with 36 samples.

Results

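The libraries described here are those of the divided cortical plate of the fetal Chinese tree shrew (Tupaia belangeri chinensis) at embryonic day 37 (E37) and embryonic day 42 (E42). They were chosen by their labels alone, as every library labelled inner cortical plate (CPi) or outer cortical plate (CPo) at these stages, and they number 8 of the 36 libraries analysed here. Each stage had 2 CPi and 2 CPo libraries, with replicate numbers 2 and 3 at E37 and 1 and 2 at E42. The layers were cut by laser capture microdissection from Nissl-stained frozen sections of fetal cortex, with no treatment in the labels, and polyadenylated RNA was sequenced. The question was which transcripts rose or fell in the plate between the stages, with sublayer as a covariate. The labels do not say whether libraries that share a number came from the same fetus, so p-values over 4 against 4 libraries may be too small, and where the number as a block ended a call named below, the value with the block is given.

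The cortical plate is the layer in which newborn excitatory neurons settle after migrating from the germinal zones through the intermediate zone (IZ) below. It fills from inside to outside, so that its inner part holds earlier-born neurons of the deep layers and its outer part later-born neurons of the upper layers. Once settled, these neurons extend axons and dendrites and begin to form synapses.

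The annotation used by the authors holds 76871 features. Of these, 21043 carry a TSDBGID identifier with no gene symbol, 31776 are intergenic features named after a gene (LINC-SYMBOL-n) and 22595 are antisense features named after a gene (SYMBOL-AS-n). Genes are therefore named here through the latter, with 54371 features in all. What such a feature measures is a transcript that carries the gene's name, not the gene itself. How the names were given is not stated in the sources used here. Intergenic and antisense are therefore read from the names, here and below, and nearness to the named gene is not known. Since the strand setting of the counter is not given either, reads of a gene and of its antisense partner cannot be told apart. Features that share a name are not replicates of each other. Levels are given as CPM, which are reads scaled to a common library size with TMM factors over the 36 libraries.

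Depth differed between the stages. Counts on features ranged from 24977639 to 30242605 in the E37 plate libraries and from 41628512 to 60294673 at E42, and the ranges did not overlap (exact two-sided permutation p = 0.0286). Unaligned reads made up 13.2% to 15.1% of the counted lines at E37 and 8.22% to 10.3% at E42. The share of counts on LINC features was 0.811% to 0.830% at E37 and 0.690% to 0.721% at E42, and that on antisense features 0.854% to 0.893% against 0.907% to 1.03%. Each of these 3 differences in shares reached an exact two-sided permutation p of 0.0286, the smallest that 4 against 4 libraries allow, with an adjusted p of 0.0629 over 11 measures of shares. Log2 CPM correlated across features at 0.971 to 0.979 between the CPi and CPo of 1 number, at 0.964 to 0.984 between libraries of 1 group and at 0.944 to 0.964 between stages, as a description over features that are not independent. The part that depth and alignment play in the results below was not tested.

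Of 17600 features tested, 1317 rose (7.48%) and 1098 fell (6.24%) from E37 to E42 at an adjusted p under 0.05 (edgeR quasi-likelihood test with Benjamini-Hochberg adjustment), together 13.7% of those tested. More than 2-fold, 668 rose and 287 fell. The TSDBGID features supplied 1158 of the rises (8.52% of those tested) and 994 of the falls (7.31%). Of 3967 symbol-named features tested, 155 rose (3.91%) and 102 fell (2.57%), together 6.48%, with a median log2 fold change of 2.09 among those that rose and −1.42 among those that fell. Over all symbol-named features tested the median was 0.14. With the replicate number as a random block, 627 features rose and 420 fell, and with CPi and CPo of each number summed, 230 rose and 108 fell (2 against 2). Of the 257 symbol-named calls, 214 did not overlap between the stages, against 12.5% of all symbol-named features tested. Calls and overlap were read from the same libraries, so this excess follows largely from the calls and is no separate support. Of the same 257, 64 passed with the block, 46 in the summed libraries and 255 in the DESeq2 Wald test. The total of 2415 calls also dropped to 989 without E42 CPi replicate 1, 1123 without E42 CPo replicate 1, 1174 without E42 CPi replicate 2 and 1552 without E42 CPo replicate 2.

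An undivided E37 plate library (replicate number 1) entered none of these fits and gave a separate look at the called features. The study's methods name an E37 plate data set taken from earlier work, and whether this library belongs to it is not stated. On the log2 (CPM + 0.25) scale it lay nearer to the E37 mean than to the E42 mean for 80.6% of the 1317 features that rose and 77.5% of the 1098 that fell. For symbol-named features the share was 69.7% of the 155 that rose and 60.8% of the 102 that fell. It lay nearer to the E37 mean for 8 of the 12 largest symbol-named rises, 5 of the 12 largest falls and 11 of the 18 called features that the naming rule took from the gene lists. These are descriptions with no test, since the features were chosen on the extremes of the other E37 libraries.

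The 12 largest rises and 12 largest falls were taken from called symbol-named features averaging at least 0.5 CPM with no overlap between stages. Their lack of overlap was thus set by that choice. Among the rises, EDIL3-AS-3 is named as antisense to EDIL3, which encodes an integrin-binding matrix protein. Its level was 0 CPM in 3 of the 4 E37 libraries and 0.0356 CPM (1 read) in the CPo of number 3, against 1.97 and 3.19 CPM in the E42 CPi and 0.422 and 0.131 CPM in the E42 CPo. The E42 CPi libraries were the highest. Over 1 read at E37 and 236 at E42 the depth-scaled ratio was 140 (95% exact interval 25.0 to 5569, counting error only), with an adjusted p of 0.00265, or 0.0847 with the block. Here and below, features with at most 3 reads in 1 stage passed the count filter only through the other stage. So did features with more reads whose levels in all libraries of 1 stage were too low for the filter. Among them are LINC-LCK-1, HAPLN1-AS-1, LINC-PARD3-17, LINC-TMEM132B-5 and LINC-NPY-1, none above 0.271 CPM in an E37 plate library. TANK-AS-2 and ZNF831-AS-1 likewise did not exceed 0.249 CPM in an E42 plate library. The ratios, fold changes and p-values of all such features, with or without the block, describe features chosen in part for their difference between stages.

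HAPLN1-AS-1 is named as antisense to HAPLN1, which encodes a link protein that ties hyaluronan to proteoglycans in the extracellular matrix. It measured 0.220 and 0.0774 CPM in the E37 CPi and 0 and 0.213 CPM in the E37 CPo, then 3.07 and 4.91 CPM in the E42 CPi and 0.770 and 0.814 CPM in the E42 CPo. At E42 both CPi libraries stood above both CPo libraries. It rose by 3.81 on the log2 scale (SE 0.64, adjusted p = 0.00431, 0.0198 with the block). The undivided E37 library measured 1.12 CPM, inside the E42 range.

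Of 8 tested features named after TMEM132B, which encodes a transmembrane protein, 3 rose and none fell. The highest of them, LINC-TMEM132B-23, measured 1.21 and 0.619 CPM in the E37 CPi and 0.183 and 0.107 CPM in the E37 CPo. At E42 it reached 10.9 and 10.5 CPM in the CPi and 2.91 and 1.79 CPM in the CPo, so that the CPi exceeded the CPo at both stages. Its rise of 3.64 (SE 0.32, adjusted p = 0.000171) kept an adjusted p under 0.05 in all 22 other analyses run, and the undivided E37 library, at 0.806 CPM, lay within the E37 range. LINC-TMEM132B-5 rose by 3.06 (SE 0.46, adjusted p = 0.00264) and LINC-TMEM132B-3 by 2.91 (SE 0.39, adjusted p = 0.00155), both with the same order of CPi above CPo at E42. The other 5 tested features of that name had log2 fold changes from −0.60 to 2.29 and did not pass.

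Some of these features also rose in neighbouring layers. LINC-TMEM132B-23 also rose in the IZ by 2.75 (adjusted p = 0.000641) and in the marginal zone (MZ) above the plate by 3.47 (adjusted p = 9.22e-05), where it reached 28.6 and 35.2 CPM at E42. Of all features tested, 3.37% rose in the IZ and 2.82% in the MZ. LINC-LCK-1, named after the kinase gene LCK, had 0 CPM in 3 of the 4 E37 plate libraries and 0.183 CPM in the other, against 1.10 to 2.48 CPM at E42, a rise of 5.28 (SE 0.83, adjusted p = 0.00342, 0.0228 with the block). It was at 0 in the undivided E37 plate and in all E37 IZ and MZ libraries, and at 1.43 to 1.91 CPM in the E42 IZ and MZ. The other annotated feature of that name, LINC-LCK-2, had 0 reads at E37 and 89 at E42.

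The remaining rises of the 12 were smaller or less steady. LINC-PARD3-17, named after a cell polarity gene, went from 0.0774 to 0.220 CPM at E37 to 1.02 to 2.36 CPM at E42 (log2 fold change 3.36, SE 0.47, adjusted p = 0.00197, 0.0303 with the block). LINC-HENMT1-4 went from 0.107 to 0.310 CPM to 0.788 to 2.04 CPM (2.93, SE 0.41, adjusted p = 0.00197, 0.0240 with the block). For both, the undivided E37 library lay nearer the E37 mean. LINC-HMGB1-215, LINC-ACTC1-1, LINC-SYNB-1 and LINC-PAPOLG-4 rose as well, with adjusted p from 0.00572 to 0.0290, and each lost its call with the block (adjusted p 0.057 to 0.121). HMGB1 names 250 annotated features, and whether reads of other features of that name were counted on this one was not tested.

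**Figure D1:**
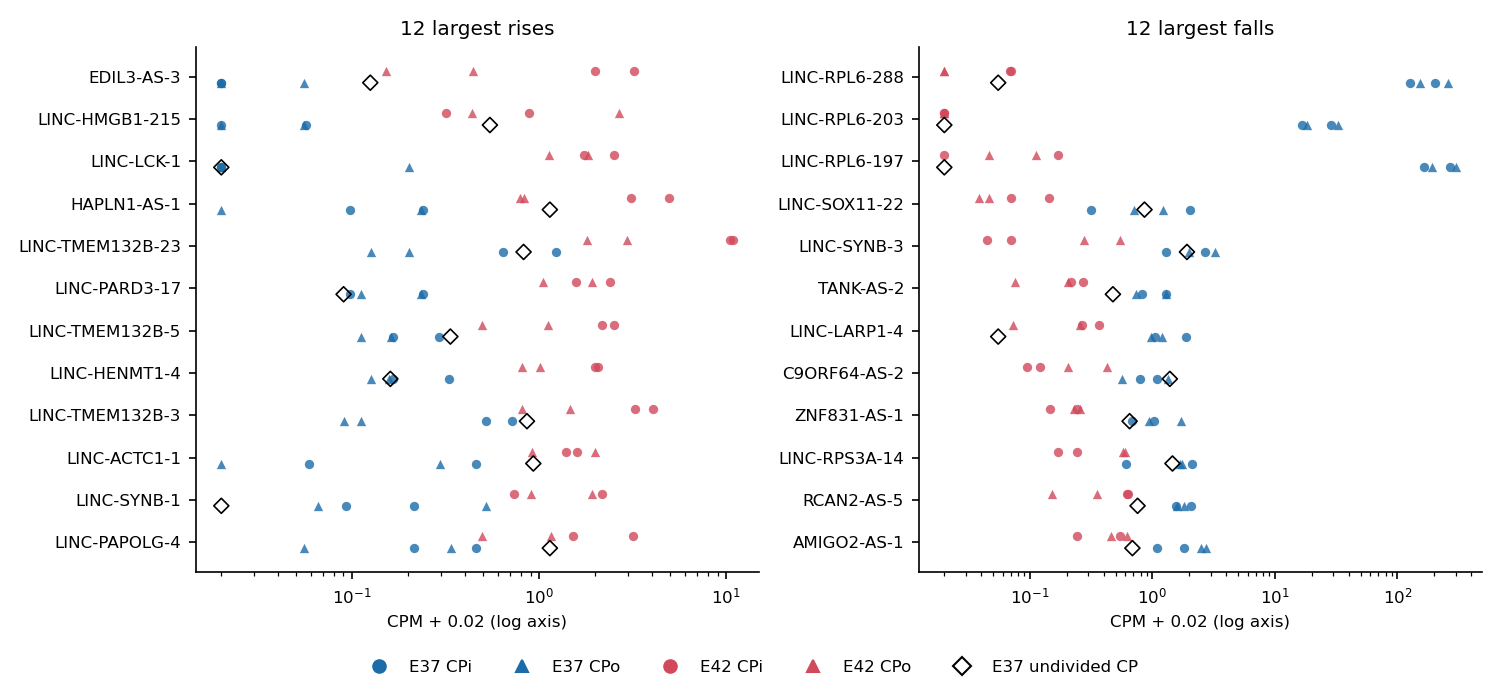
Levels of the 12 symbol-named features with the largest rise and the 12 with the largest fall, as CPM + 0.02 on a log axis. Blue points are E37 and red points E42 libraries, circles CPi and triangles CPo, and the open diamond is the undivided E37 plate library, which entered no fit. The diamond sits with the E42 points for LINC-RPL6-288, LINC-RPL6-203 and LINC-RPL6-197.

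The 3 deepest falls were features named after RPL6, a ribosomal protein gene whose name is carried by 620 features. LINC-RPL6-288 measured 126, 154, 204 and 258 CPM in the 4 E37 plate libraries and 0 to 0.0499 CPM at E42, and LINC-RPL6-197 measured 164 to 303 CPM against 0 to 0.150 CPM. LINC-RPL6-203 had 2511 reads at E37 (16.7 to 32.7 CPM) and 0 at E42, at least 1407-fold lower against a floor of 3 reads over the group. Adjusted p for the 3 was 5.57e-06 to 0.000189 and stayed at 0.00128 to 0.00252 with the block.

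These levels went with the replicate number and not with the stage alone. In the E37 libraries of number 1, the undivided plate and an IZ library, LINC-RPL6-288 and LINC-RPL6-197 were at 0 to 0.0491 CPM, as at E42. At E28, LINC-RPL6-288 measured 115 to 189 CPM in all 6 libraries of number 1 and 0.0240 to 0.439 CPM in all 6 of number 2. Summed over all RPL6-named features, the level was 345 to 639 CPM in the E37 plate and 27.8 to 36.0 CPM at E42. Without the RPL6-named features the LINC share of counts remained higher at E37, at 0.770% to 0.794% against 0.690% to 0.720%.

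The 2 TSDBGID features with the largest rises showed the opposite pattern over the same libraries. TSDBGID.19022 had 0 reads in the 4 E37 plate libraries and 87.2, 103, 74.8 and 90.4 CPM in the 4 E42 libraries, at least 3095-fold higher against the floor of 3 reads over the group (adjusted p = 1.39e-07). TSDBGID.19473 had 0 reads against 28.0 to 40.3 CPM, at least 1180-fold higher. Yet the undivided E37 plate held 117 and 39.9 CPM of them, while at E28 the libraries of number 1 held at most 1 read of TSDBGID.19022 and those of number 2 held 80.5 to 174 CPM. USP9Y-AS-1, antisense to the Y-linked gene USP9Y and named here after its values were seen, had 0 reads in the E37 plate and 0.225 to 0.917 CPM at E42, at least 18.4-fold higher, and was at 0 in all libraries of E28 number 1 and E37 numbers 2 and 3. The labels give no fetal sex. For these 6 features a difference between stages and a difference between the replicate numbers cannot be told apart. The other stage calls rest on the same libraries and numbers. Within these fits the same limit therefore holds for them, and its part in them was not tested.

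**Figure D2:**
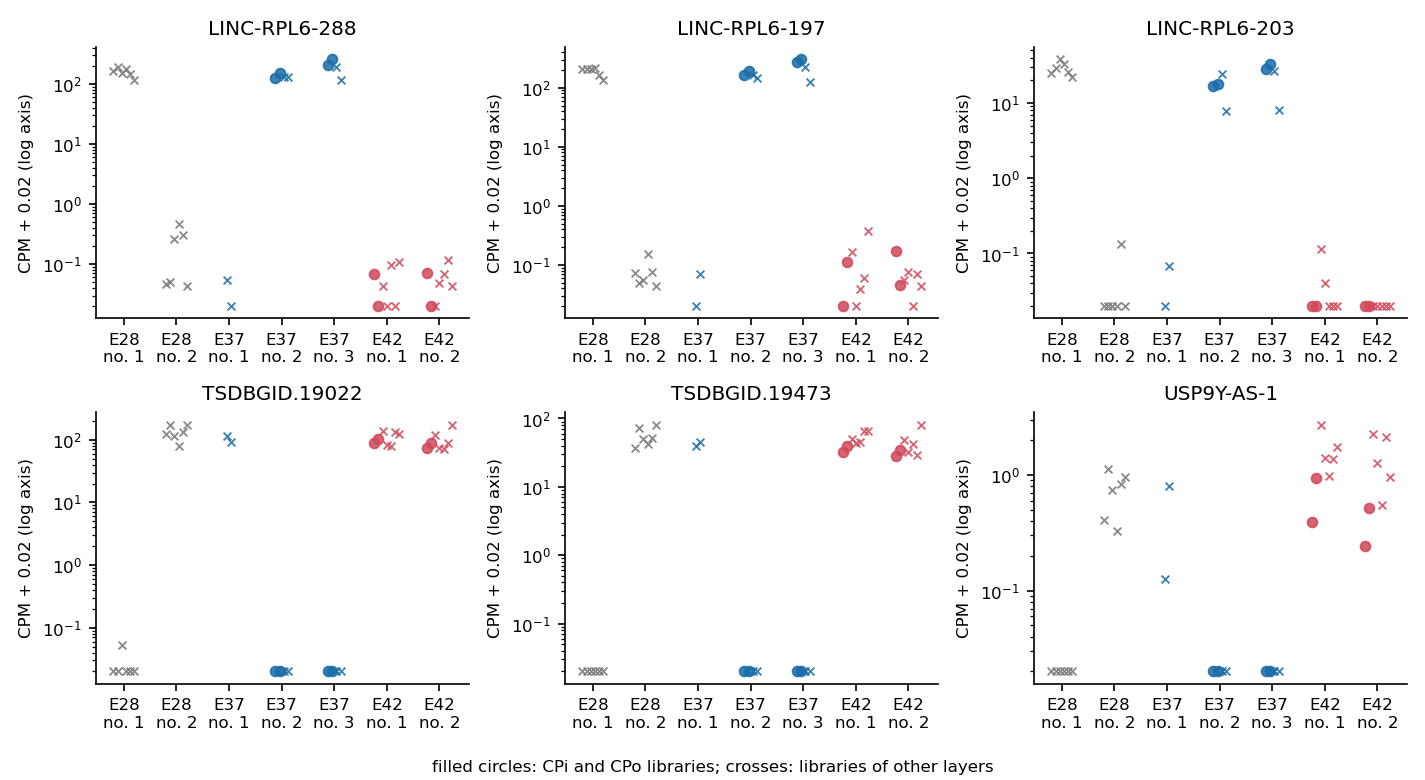
Levels of 6 features in all 36 libraries, split by stage and replicate number (CPM + 0.02, log axis). Filled circles are CPi and CPo libraries and crosses are other layers. The RPL6-named features are high in E28 number 1 and E37 numbers 2 and 3, and the other 3 features are high in E28 number 2, E37 number 1 and E42. The E42 VZ library of number 2 holds the same counts as the E28 VZ library of number 2.

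The 2 TSDBGID features with the largest falls differed in how the undivided library placed. TSDBGID.4907 measured 20.7 and 8.67 CPM in the E37 CPi and 11.0 and 11.1 CPM in the E37 CPo, and 0.210 to 0.574 CPM in the 4 E42 libraries. It fell by 5.10 on the log2 scale (SE 0.35, adjusted p = 2.48e-05), kept that call in all 22 other analyses, and measured 6.03 CPM in the undivided E37 plate. TSDBGID.24682 fell from 19.7 to 66.8 CPM to 1.76 to 8.73 CPM (adjusted p = 0.0323), but it lost the call with the block (adjusted p = 0.0752) and measured 4.38 CPM in the undivided E37 plate.

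Features named after genes of immature neurons fell in 3 of 9 cases tested, and none of the 9 rose, with a median log2 fold change of −0.27. Over all symbol-named features tested, against which this and each list below is to be read, 3.91% rose and 2.57% fell, with a median of 0.14. The summed level of the list overlapped between the stages, at 48.7 to 86.8 CPM at E37 and 54.2 to 83.4 CPM at E42, and the more abundant LINC-SOX11-14 did not pass (log2 fold change −0.61, SE 0.44, adjusted p = 0.407). SOX11 encodes a transcription factor of newly formed neurons. LINC-SOX11-22 measured 0.293 and 2.01 CPM in the E37 CPi and 0.686 and 1.21 CPM in the E37 CPo, against 0.123 and 0.0499 CPM in the E42 CPi and 0.0183 and 0.0263 CPM in the E42 CPo. The fall of 4.37 (SE 0.76) had an adjusted p of 0.00475, but of 0.101 with the block. LINC-SOX11-20 fell by 3.51 (SE 0.98, adjusted p = 0.0429, 0.266 with the block) with 2.21 and 1.60 CPM in the E37 libraries of number 3 but 0.256 and 0.0457 CPM in those of number 2, which overlapped the E42 range of 0.0263 to 0.175 CPM. LINC-NEUROD2-1, named after a neuronal differentiation factor, fell by 2.04 (SE 0.43, adjusted p = 0.0121, 0.0574 with the block), from 1.03, 1.10, 2.98 and 2.81 CPM to 0.394 to 0.552 CPM. Its stages did not overlap, and the undivided E37 library, at 1.44 CPM, lay within the E37 range.

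The other named falls were LINC-SYNB-3, TANK-AS-2, LINC-LARP1-4, C9ORF64-AS-2, ZNF831-AS-1, LINC-RPS3A-14, RCAN2-AS-5 and AMIGO2-AS-1, with log2 fold changes from −3.79 to −2.19. LINC-SYNB-3 (adjusted p = 0.0256 with the block) and AMIGO2-AS-1 (0.0158) kept their calls with the block, and the other 6 did not (adjusted p 0.0506 to 0.132). AMIGO2 encodes a neuronal adhesion protein. Its antisense feature measured 1.06 and 1.78 CPM in the E37 CPi, 2.47 and 2.70 CPM in the E37 CPo and 0.221 to 0.604 CPM at E42. The undivided E37 library held 0.666 CPM of it, below these E37 values and just above the E42 range. Of LINC-SYNB-3 that library held 1.89 CPM, within the E37 range. Of 4 tested features named after RWDD3, a gene of the sumoylation pathway, 3 fell, with log2 fold changes from −2.15 to −1.52. LINC-RWDD3-8 kept its call with the block (adjusted p = 0.0473), while LINC-RWDD3-4 (0.0976) and LINC-RWDD3-5 (0.188) lost theirs, and the other feature had a log2 fold change of −2.61 that did not pass (adjusted p = 0.0817).

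Of the markers of neuron position, 1 of 21 upper-layer features rose and none fell, with a median of 0.55, and 0 of 8 deep-layer and subplate features passed, with a median of 0.18. CUX2 encodes a transcription factor of upper-layer neurons. CUX2-AS-1 had 0 CPM in both E37 CPi libraries and 0.0457 and 0.0356 CPM in the E37 CPo, against 0.0738 and 0.0499 CPM in the E42 CPi and 0.752 and 0.499 CPM in the E42 CPo. The level was thus highest in the E42 CPo, and the lowest E42 value lay just above the highest E37 value. CUX2-AS-1 passed the count filter only through its E42 CPo libraries. From 2 reads at E37 to 65 at E42 the ratio was 19.3 (95% exact interval 5.14 to 163, counting error only). The adjusted p was 0.0195, and 0.125 with the block, and the undivided E37 library measured 0.210 CPM. Other features of the list, such as LINC-POU3F1-1 (13.5 to 47.7 CPM at E37, 29.2 to 65.5 CPM at E42), overlapped between the stages.

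Of 36 features named after axon guidance genes, 4 rose and 2 fell, with a median of −0.16, against 3.91% and 2.57% of all symbol-named features. LINC-NRP1-25, named after a semaphorin receptor gene, had 0.0366, 0, 0 and 0.0356 CPM at E37 and 0.374 to 0.473 CPM at E42, a ratio of 21.4 (95% exact interval 5.72 to 180, adjusted p = 0.0114). LINC-EPHA7-1, named after an ephrin receptor gene, rose from 0.274 to 0.879 CPM to 1.47 to 2.78 CPM (log2 fold change 1.65, SE 0.36, adjusted p = 0.0135). PLXNA4-AS-1, antisense to a plexin gene, fell from 37 reads at E37 (0.0914 to 0.569 CPM) to 2 reads at E42, a ratio of 31.1 (95% exact interval 8.02 to 266, adjusted p = 0.0193). Each lost its call with the block (adjusted p 0.074 to 0.0882). The undivided E37 library lay nearer the E42 mean for LINC-NRP1-25 (0.316 CPM) and nearer the E37 mean for LINC-EPHA7-1 and PLXNA4-AS-1. Other tested features named after PLXNA4 and NRP1 did not pass. The far more abundant PLXNA4-AS-9 measured 95.1 to 222 CPM at E37 and 95.6 to 159 CPM at E42 (log2 fold change −0.37). LINC-PLXNA4-2 had a log2 fold change of 0.24 and NRP1-AS-2 of −0.27. LINC-SEMA6D-12 and NEO1-AS-3 also rose, and SEMA3E-AS-1 also fell, and these 3 calls were lost with the block as well (adjusted p 0.342, 0.152 and 0.166).

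Of 22 features named after cadherins and protocadherins, 2 fell and none rose, both named after CDH4, which encodes R-cadherin. LINC-CDH4-2 measured 7.40 and 4.92 CPM in the E37 CPi and 8.78 and 6.33 CPM in the E37 CPo, against 2.36 to 4.24 CPM at E42, a fall of 1.03 (SE 0.25, adjusted p = 0.0203, 0.0583 with the block). In the IZ and MZ its log2 fold changes were 0.80 and 0.43, and neither passed. LINC-CDH4-1, at 0.542 to 1.05 CPM at E37 and 0.0788 to 0.349 CPM at E42, fell by 1.93 (SE 0.53, adjusted p = 0.0337, 0.162 with the block). The undivided E37 library lay within the E42 range for both, at 3.09 CPM of LINC-CDH4-2 and 0.210 CPM of LINC-CDH4-1.

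Features named after genes of synapses and excitability were mostly not called. Among voltage-gated channel genes 2 of 23 rose, SCN3A-AS-2 by 1.19 (SE 0.30, adjusted p = 0.0262) and LINC-KCNH8-6 by 1.50 (SE 0.41, adjusted p = 0.0349). SCN3A encodes a sodium channel subunit of the developing brain, and its antisense feature measured 0.623 to 1.10 CPM at E37 and 1.60 to 2.25 CPM at E42. Among GABA receptor genes 1 of 10 rose, LINC-GABRB1-1, from 0.0914 to 0.440 CPM to 0.893 to 1.72 CPM (2.07, SE 0.40, adjusted p = 0.00814). Among synaptic adhesion genes 1 of 45 rose, CADM3-AS-2, from 1.05 to 2.63 CPM to 3.59 to 4.56 CPM (1.09, SE 0.29, adjusted p = 0.0307). None of these 4 passed with the block (adjusted p 0.0808 to 0.179).

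Of 20 features named after presynaptic release genes, 1 rose and 1 fell, both named after synapsins, which bind synaptic vesicles. SYN3-AS-7 rose from 1.76 and 1.47 CPM to 6.39 and 3.47 CPM in the CPi and from 0.731 and 0.675 CPM to 1.69 and 1.55 CPM in the CPo (1.35, SE 0.29, adjusted p = 0.0123, 0.0696 with the block), so the stages were separate within each sublayer although the E42 CPo overlapped the E37 CPi. It also rose in the IZ by 1.71 (adjusted p = 0.00705) and in the MZ by 2.04 (adjusted p = 0.00546). SYN1-AS-1 had 43 reads at E37 (0.183 to 0.569 CPM) and 0 at E42, at least 24.1-fold lower against the floor of 3 reads over the group (adjusted p = 0.00853, 0.0230 with the block), and the undivided E37 library held 0.456 CPM. None of 9 glutamate receptor features (median 0.38) or 26 postsynaptic scaffold features (median 0.14) passed. Of 4 activity-regulated features 1 rose, NR4A1-AS-1, from 2 reads at E37 to 54 at E42 (ratio 16.1, 95% exact interval 4.24 to 136, adjusted p = 0.0363, 0.170 with the block).

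**Figure D3:**
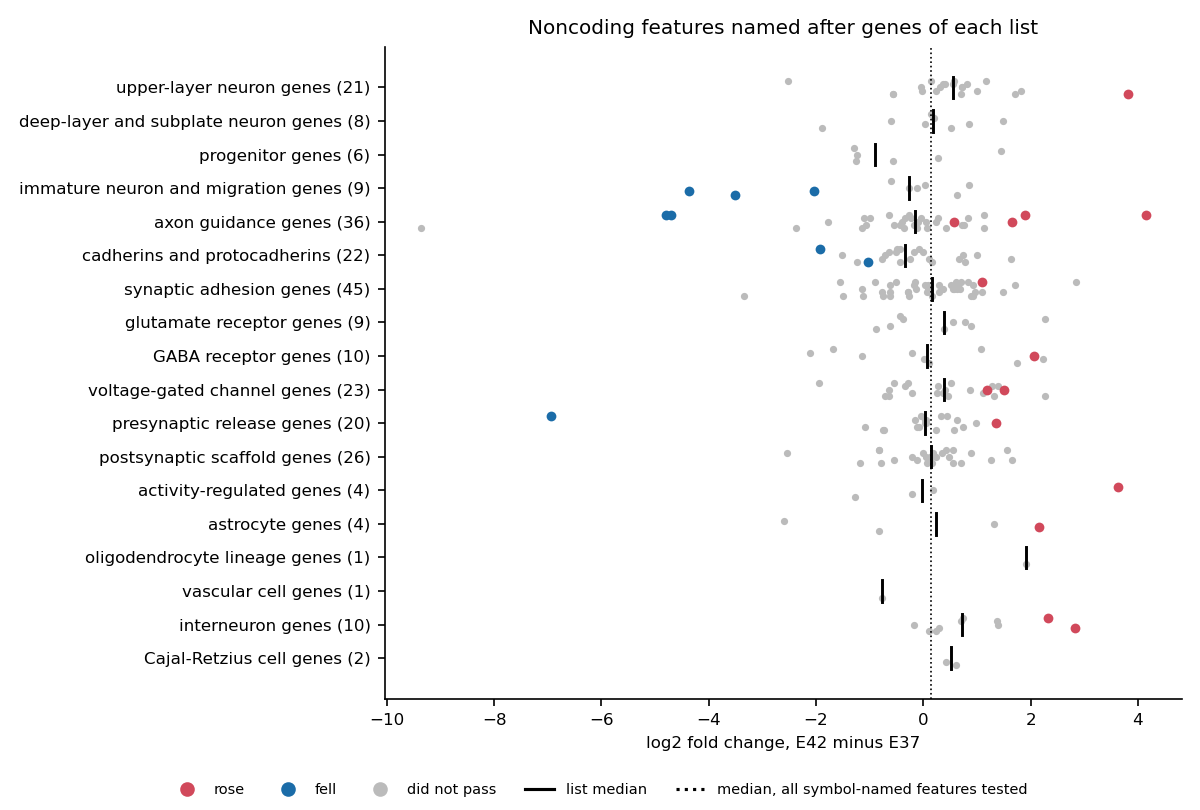
Log2 fold changes from E37 to E42 of symbol-named features by the list of genes they are named after, with the number tested in brackets. Red points rose and blue points fell at an adjusted p under 0.05, grey points did not pass, black bars are list medians and the dotted line is the median of all symbol-named features tested (0.14). Most points of every list with more than 4 features are grey, and all coloured points of the immature neuron and cadherin lists lie below 0.

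Markers of cells other than excitatory neurons were read in the same way. Of 10 interneuron features 2 rose and none fell, with a median of 0.71, against 3.91% that rose and a median of 0.14 over all symbol-named features. LINC-NPY-1, named after neuropeptide Y, went from 0 to 0.194 CPM to 0.289 to 0.752 CPM (2.84, SE 0.72, adjusted p = 0.0264, 0.177 with the block). The undivided E37 library held 0.386 CPM of it, within the E42 range. SST-AS-1, antisense to the somatostatin gene, measured 1.14 and 0.232 CPM in the E37 CPi and 0.0914 and 0 CPM in the E37 CPo, and 3.54 and 2.59 CPM in the E42 CPi but 0.550 and 0.210 CPM in the E42 CPo (2.33, SE 0.62, adjusted p = 0.0317, 0.0506 with the block). The stages overlapped, and the CPi exceeded the CPo at both. The undivided E37 library held 0.351 CPM of SST-AS-1, nearer the E37 mean. Summed over the list, levels ran from 1.14 to 6.26 CPM at E37 and from 4.68 to 9.15 CPM at E42. In bulk samples, a change in the number of cells of a type and a change in RNA per cell cannot be told apart.

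Among 4 astrocyte features, with a median of 0.24, LINC-AQP4-3 rose (2.15, SE 0.65, adjusted p = 0.0497, 0.270 with the block). AQP4-AS-1 (−0.82) and SLC1A3-AS-4 (−2.60) had negative log2 fold changes and SLC1A3-AS-1 (1.31) a positive one, and none of these passed. The list's summed level was 2.05 to 4.37 CPM at E37 and 2.37 to 4.64 CPM at E42. None of 6 progenitor features passed (median −0.90, summed 4.29 to 6.47 CPM against 2.60 to 5.29 CPM). The 1 oligodendrocyte lineage, 1 vascular and 2 Cajal-Retzius features tested did not pass, and no microglia feature was tested, with at most 0.0249 CPM in sum. Of the annotated features of these lists, 71 of 108 progenitor, 65 of 97 interneuron, 11 of 27 astrocyte, 7 of 19 oligodendrocyte, 40 of 51 vascular and 19 of 32 Cajal-Retzius features were at 0 in all 8 libraries. The part of other cells in the plate changes was not tested.

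Taken by sublayer, 326 features rose and 168 fell in the CPi (1.85% and 0.955% of those tested), and 146 rose and 66 fell in the CPo (0.83% and 0.375%). Among symbol-named features these were 24 and 15 in the CPi (0.605% and 0.378%) and 4 and 8 in the CPo (0.101% and 0.202%). Each rests on 2 against 2 libraries, and the totals moved from 15 (without E42 CPi replicate 2) to 937 (without E37 CPo replicate 2) in the CPi and from 25 (without E42 CPo replicate 2) to 514 (without E37 CPi replicate 2) in the CPo. A test of the difference itself, the CPi change minus the CPo change, called 0 features with edgeR (0%), with 701 at an unadjusted p under 0.05, and 36 with DESeq2. With the number as a fixed block, which leaves 2 residual degrees of freedom, it called 199 above and 129 below (1.86% of all tested), of which 9 and 6 were symbol-named (0.378%).

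Of the symbol-named features that passed with that block, 2 are given here, picked after their values were seen. LINC-SOX11-14 measured 17.5 and 18.2 CPM in the E37 CPi and 6.67 and 11.0 CPM in the E37 CPo, and 22.0 and 27.4 CPM in the E42 CPi but 2.86 and 2.89 CPM in the E42 CPo. The gap between the sublayers was wider at E42, by 2.05 on the log2 scale (SE 0.26, adjusted p = 0.002 with the block, 0.317 without it and 0.000413 in the DESeq2 Wald test). LINC-LRRTM4-8, named after a synaptic adhesion gene, reached 26.4 and 6.75 CPM in the E42 CPo against 7.13 and 2.64 CPM in the E42 CPi and 0.457 to 4.76 CPM at E37 (−1.75, SE 0.36, adjusted p = 0.0311 with the block). LINC-LRRTM4-8 did not pass without the block or with DESeq2. Within each E42 number the CPo was higher than the CPi, while the CPo of number 2 lay below the CPi of number 1.

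**Figure D4:**
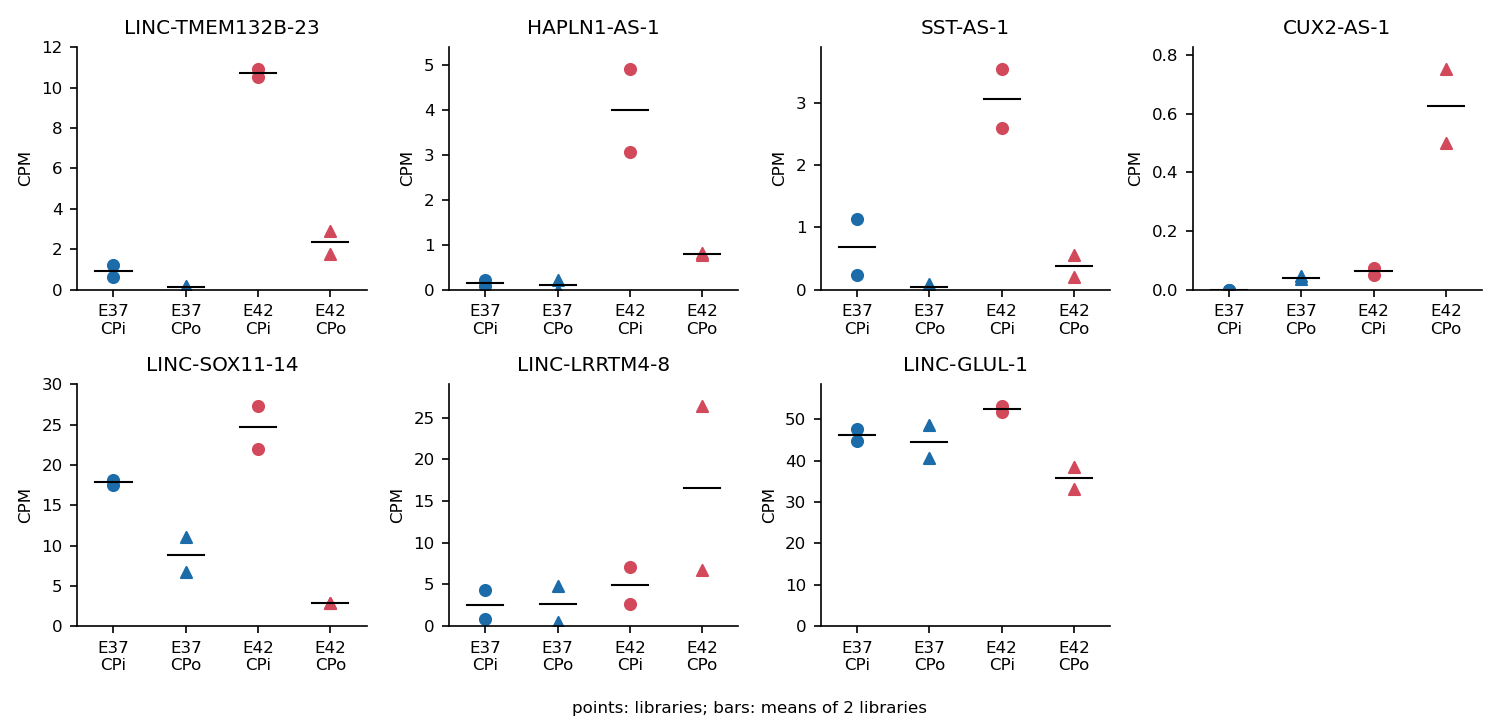
CPM of 7 symbol-named features in each plate library, by stage and sublayer, on linear axes that start at 0. Points are libraries and bars are means of 2 libraries. LINC-TMEM132B-23, HAPLN1-AS-1 and SST-AS-1 are highest in the E42 CPi, CUX2-AS-1 is highest in the E42 CPo, and the stages overlap in LINC-GLUL-1.

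Set against the neighbouring layers, the plate change differed from that of the IZ for 6 features above and 5 below, and from that of the MZ for 11 above and 51 below, of 19908 tested (0.0301%, 0.0251%, 0.0553% and 0.256%). With the replicate number as a block these became 169 and 126 against the IZ, and 179 and 249 against the MZ. None of the 11 against the IZ was symbol-named, and 2 of the 62 against the MZ were (both below, 0.0371% of symbol-named features tested). The totals against the IZ ranged from 0 (without E42 IZ replicate 1) to 24 (without E37 CPo replicate 2), and those against the MZ from 12 (without E42 MZ replicate 2) to 92 (without E37 CPo replicate 2).

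LINC-GLUL-1 is named after the glutamine synthetase gene, an enzyme of astrocytes and radial glia. It measured 40.5 to 48.6 CPM in the E37 plate, 51.8 and 53.3 CPM in the E42 CPi and 38.5 and 33.2 CPM in the E42 CPo, so the stages overlapped (log2 fold change −0.14, SE 0.13, adjusted p = 0.529). In the MZ it rose from 33.8 and 47.4 CPM to 153 CPM in both E42 libraries, by 1.84 (adjusted p = 0.000165). The difference between plate and MZ was −1.95 (SE 0.27, adjusted p = 0.00392).

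ADGRG1-AS-2 is named as antisense to ADGRG1, an adhesion G protein-coupled receptor gene needed for normal cortical layering. It stayed between 17.7 and 23.0 CPM at E37 and 16.9 and 21.6 CPM at E42 in the plate (−0.20, SE 0.14, adjusted p = 0.392), and in the MZ it rose from 24.4 and 29.6 CPM to 54.9 and 84.5 CPM, by 1.29 (adjusted p = 0.00187). The plate change lay below the MZ change by −1.46 (SE 0.25, adjusted p = 0.0154). In the IZ its log2 fold change was 0.56 and did not pass (adjusted p = 0.0851).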

How the data were processed

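RNA of laser-captured cortical layers was sequenced from poly-A libraries. Per the study's methods, reads were trimmed, mapped with HISAT v2.1.0 to the tree shrew genome (TS_3.0 annotation) and counted with HTSeq-count. The deposited files hold integer counts per feature, not normalized by the authors, and the 5 lines of unassigned reads per file were removed before testing. No coordinates or sequences were used here, and 1 feature is not reported here. Of 12435 names in LINC and antisense features, 10411 occur as symbols in the RefSeq table (TupChi_1.0), and 0 TSDBGID identifiers do.

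Features passing filterByExpr (minimum count 10, by group) were tested with edgeR 4.0.16 (R 4.3.3), robust quasi-likelihood, sublayer plus stage over 8 libraries. Group means over these 8 gave the sublayer contrasts, and 17 libraries with IZ and MZ the contrasts with neighbouring layers. DESeq2 1.42.0 and limma 3.58.1 (voom with duplicateCorrelation) gave alternatives. SE is the absolute log2 fold change over the square root of F. The scripts were tested on simulated data. Plots were drawn with matplotlib 3.10.9.

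Deviations of libraries with 1 number from their group means correlated at 0.340 between CPi and CPo at E37 and 0.248 at E42. Over all 12 layer pairs the correlations were 0.141 to 0.340. The block and summed analyses therefore treated the numbers as pairing, while the main fits took all libraries as independent. The consensus correlation of the block was 0.422. Numbers 2 and 3 at E37 and 1 and 2 at E42 share only number 2, so the block lies within stages. Intervals and floors (3 counts) cover counting error only.

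Named features were those with adjusted p under 0.05, at least 0.5 CPM on average and no overlap between stages (12 largest in each direction), up to 3 called features of each gene list, 2 TSDBGID features in each direction with at least 5 CPM, and up to 4 called in each contrast between sublayers or layers. The members and lists were chosen with earlier results of these data known, and a pattern of 1 list that matched unrelated LRRC genes was corrected after values were seen. Of 630 library pairs, 1 held identical counts (the VZ libraries of number 2 at E28 and E42), and neither entered the main fits.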

Additional observations from a re-analysis of the deposited data

Results flagged for a closer look

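Among 96 groups of 4 plate libraries (48 named features at 2 stages), 4 held a library that passed Dixon's 95% critical ratio for 4 values. The ratio rests on the gap to the nearest other library. Chance flags about 1 in 20 groups of continuous values, a rate that does not hold for counts near 0. Where all other libraries are at 0 the ratio is 1 whatever the value, as for EDIL3-AS-3, LINC-LCK-1 and PLXNA4-AS-1. EDIL3-AS-3 had 0.0356 CPM (1 read) in the E37 CPo of number 3 and 0 in the other 3 E37 libraries. LINC-LCK-1 had 0.183 CPM (4 reads) in the E37 CPo of number 2 and 0 in the others. PLXNA4-AS-1 had 0.0367 CPM (2 reads) in the E42 CPo of number 1 and 0 in the others. LINC-NEUROD2-1 had 0.394 CPM (16 reads) in the E42 CPi of number 1, below 0.532 to 0.552 CPM in the other E42 libraries.

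The plate change differed from that of a neighbouring layer by a test of the difference for 11 features against the IZ and 62 against the MZ. Among symbol-named features these were ADGRG1-AS-2, whose plate change minus MZ change was −1.46, and LINC-GLUL-1, at −1.95.

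The undivided E37 plate library, which entered no comparison, held 117 CPM of TSDBGID.19022, 39.9 CPM of TSDBGID.19473 and 0.105 CPM of USP9Y-AS-1 (3 reads), all at 0 reads in the 4 divided E37 plate libraries.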

How the results depend on the processing

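The stage change called 2415 features, and counts for DESeq2, no filter on low counts and the other scalings (2374 to 3349) lay within 1.5 times of this. It called 955 with a further threshold of 1 on the log2 fold change, 771 with all 36 libraries, 1334 with 35, 1456 without the sublayer covariate, 1047 with the replicate block and 338 with CPi and CPo of a number summed. Leaving out libraries, singly or both of a number, gave 141 (without both E42 libraries of number 1) to 3291.

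Without the low-count filter, the sublayer difference, CPi, CPo, IZ and MZ contrasts called 114, 1620, 1197, 238 and 310 features, against 0, 494, 212, 11 and 62. DESeq2 called 36, 1405, 997, 158 and 259. The replicate block called 328 for the sublayer difference, 295 against the IZ and 428 against the MZ, where numbers pair within stages. With 36 libraries CPi gave 88, CPo 58, IZ 2 and MZ 19, and with 35 CPi gave 256. Leaving out 1 library gave 0 to 18 for the sublayer difference, 15 to 937 for CPi, 25 to 514 for CPo, 0 to 24 against the IZ and 12 to 92 against the MZ. Leaving out IZ and MZ libraries was added after the data were seen. The cause of these shifts was not tested.

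Of 46 named features, 2 (LINC-TMEM132B-23 and TSDBGID.4907) passed in all 22 alternatives, and none of the 46 changed direction. Calls were lost by 30 with the block, 23 when summed, 28 with 36 libraries, 20 with 35, 8 without the covariate, 6 to 9 without 1 E37 library, 10 to 20 without 1 E42 library, 7 and 10 without both E37 libraries of number 2 or 3, and 38 and 30 without both E42 libraries of number 1 or 2, and DESeq2 kept all 46. Depth limits features near the filter: 3 reads over 1 library equal 0.0992 to 0.120 CPM at E37 and 0.0498 to 0.0721 CPM at E42.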

Other observations

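Beyond the lists and the largest changes, 3 further called features are given here, picked after their values were seen. LAMP5-AS-1, antisense to a membrane protein gene of cortical neurons, went from 0.498 to 0.658 CPM at E37 to 2.03 to 4.01 CPM at E42, a rise of 2.23 (SE 0.29, adjusted p = 0.00138, 0.0130 with the block). LGI1-AS-1, antisense to a secreted synaptic protein gene, went from 0.731 to 1.24 CPM to 3.13 to 6.66 CPM, a rise of 2.03 (SE 0.31, adjusted p = 0.00277, 0.0195 with the block), and LGI1-AS-2 rose by 1.01 (SE 0.23, adjusted p = 0.0154, 0.0754 with the block). For all 3 the stages did not overlap.

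Of 3049 gene names with a tested feature, 236 had a called feature and 17 had at least 2. For 14 of these 17 the called features of a name shared 1 direction, and in 3 (NPM1, SPAG1 and SYNB) 1 rose and 1 fell. ACTC1, named in the largest rises through LINC-ACTC1-1, had a further rise in ACTC1-AS-1, from 3 reads at E37 to 111 at E42 (adjusted p = 0.00366, 0.0570 with the block).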
